A study of Mus musculus with 30 samples.

Results

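The 10 genes described here code for enzymes that remove methyl groups from lysine 9 of histone H3 (H3K9) and were chosen by that function: *Kdm3a*, *Kdm3b*, *Jmjd1c*, *Kdm4a*, *Kdm4b*, *Kdm4c*, *Kdm1a*, *Phf8*, *Phf2* and *Kdm7a*. They are 10 of 21951 protein-coding genes in the mouse GENCODE M21 annotation. H3K27ac, the acetylation of histone H3 lysine 27 that marks promoters and enhancers in use, had been mapped by chromatin immunoprecipitation and sequencing in CK1750 and Tnm2, both mouse lung adenocarcinoma cell lines, of which CK1750 is described by the study as resembling tumor-propagating cells. Each line was cultured with DMSO as vehicle, or in 1 µM of UNC0638, a compound that inhibits the H3K9 methyltransferases G9a (*Ehmt2*) and Glp (*Ehmt1*). The data used are 4 peak lists, 1 per line and treatment, with 3 samples labelled for CK1750 with DMSO and 2 for each other group, of 30 samples in the series. The other 21 samples are H3K9me2 and input libraries. No group had a second list, so no replicate spread exists and no difference below was tested.

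H3K9 methylation packs chromatin and accompanies silent genes. The KDM3 enzymes act on the mono- and dimethylated forms, while the KDM4 enzymes act on the tri- and dimethylated forms and also on H3K36. *Kdm1a* (Lsd1) uses a flavin cofactor instead of the JmjC domain and is known mainly for H3K4, with H3K9 as a further substrate in some complexes, and *Phf8*, *Phf2* and *Kdm7a* pair a PHD finger that reads H3K4 trimethylation with a JmjC domain. The comparison of treated with untreated cells asks what acetylation the genes of these opposing enzymes carried when the methyltransferases were inhibited.

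For CK1750 the lists held 27367 peaks (DMSO) and 24601 peaks (UNC0638), and for Tnm2 30641 (DMSO) and 18794 (UNC0638). Values below follow this order unless stated. The median peak was 835, 1048, 831 and 1040.5 bp long, so peaks of the whole list were longer with UNC0638 in both lines. A peak's score is -10 log10 of its P value, which grows with sequencing depth, and depth is unknown, so a score was placed only by its percentile, the percentage of peaks of the same list with a lower score, ties placed at their midpoint. Scores piled up at 3100 while a few were higher, with 610, 421, 197 and 15 peaks at 3100 or more. The percentiles keep the deposited order of these scores, which may carry no meaning, so medians with them tied are also given where they differ. Of the markers inspected, *Cdh1*, *Krt8*, *Krt18*, *Nkx2-1* and *Sftpc*, which belong to epithelial and lung epithelial cells, had promoter peaks in every list, as did *Vim*. *Epcam* and *Napsa* had none in any list, nor had the blood markers *Ptprc* and *Cd68* or the endothelial marker *Cdh5*. The endothelial marker *Pecam1* had a promoter peak in both Tnm2 lists, *Sftpb* in Tnm2 with UNC0638 alone, and *Col1a1* in all but that list.

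All 10 genes had a promoter peak in all 4 lists. A promoter peak overlapped the 2.5 kb on either side of any annotated start site of the gene. Over all protein-coding genes, 50%, 49.1%, 49.4% and 41.3% had a promoter peak in the respective lists and 39.2% had one in all 4. No demethylase gene lost all of its promoter peaks with UNC0638, against 4.85% of the marked genes in CK1750 and 17.7% in Tnm2. The difference from these shares was not tested, and the shares were not matched for peak percentile or number of start sites. With DMSO the median percentile of the 10 genes was 95.7 in CK1750 and 93.7 in Tnm2, against 77.2 and 77.3 for all marked genes. The presence in all 10 genes holds where any start site counts: in Tnm2 with UNC0638, 9 genes had a peak at the main start site. At a score of at least 100, 8 genes had a promoter peak in that list. The 10 genes together had 15, 14, 15 and 12 promoter peaks. With the peaks at start sites of other genes within 50 kb, the totals were 27, 25, 29 and 23. The bases that lay inside a promoter peak in all 4 lists made up between 34.2% (*Jmjd1c*) and 85.6% (*Kdm7a*) of those inside one in any list, with a median of 75.0%.

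**Figure D1:**
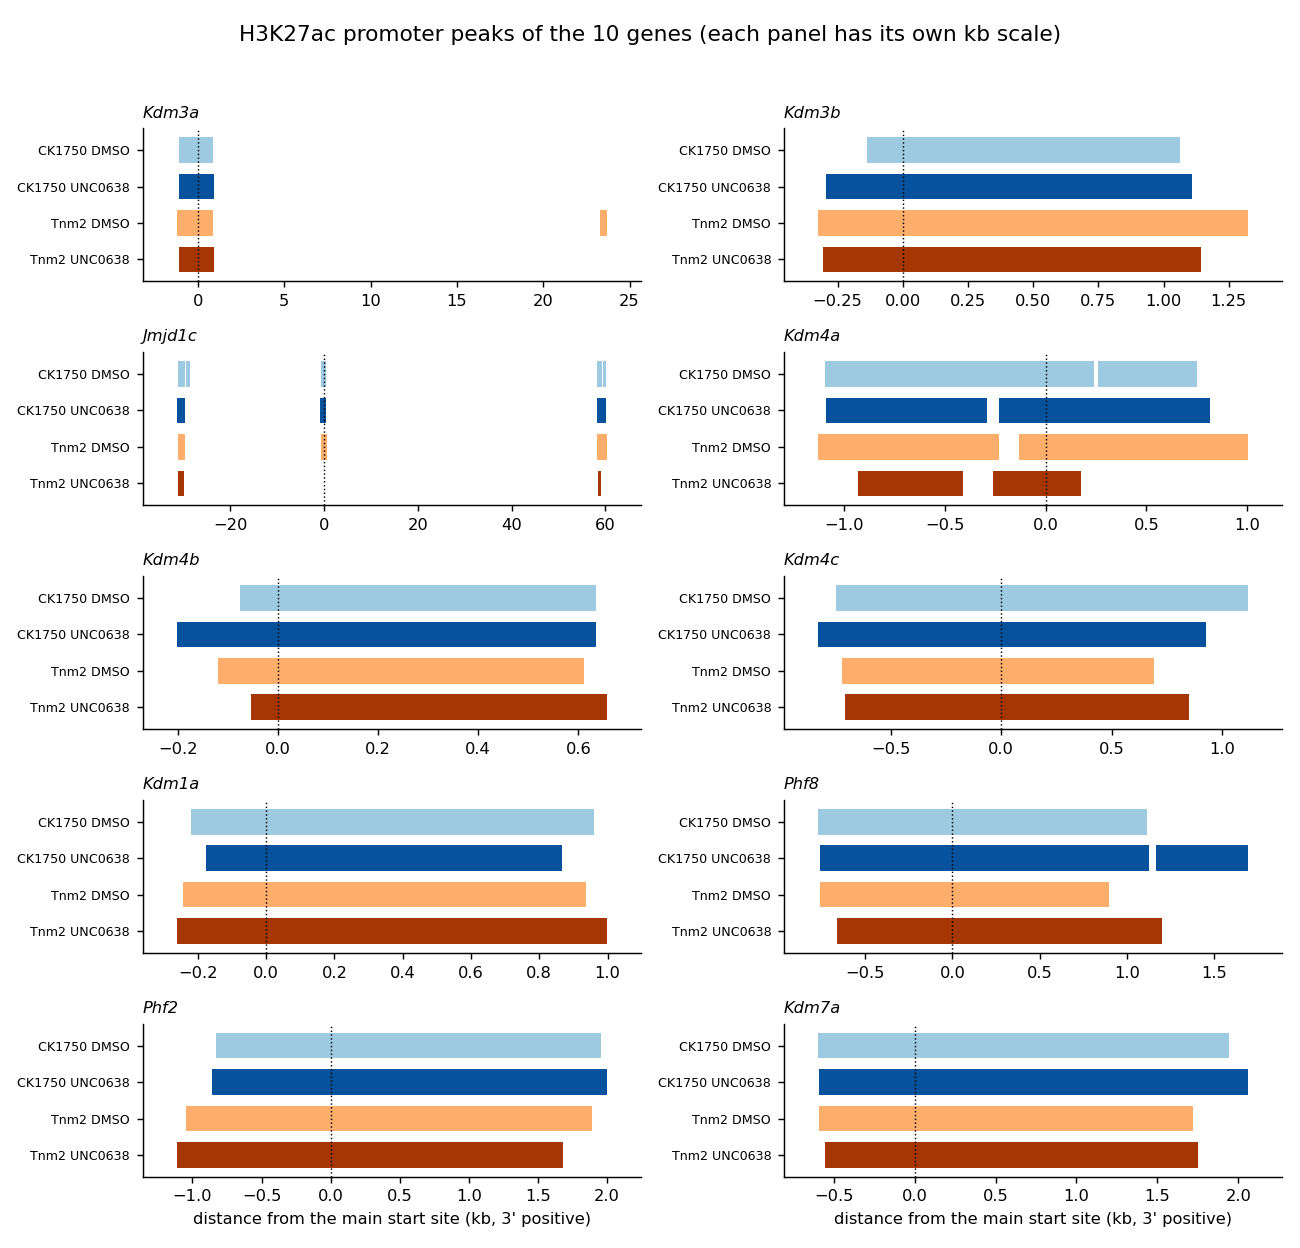
H3K27ac promoter peaks (bars) of the 10 genes in the 4 lists, by distance from the gene's main start site in kb, with downstream to the right, the start site as a dotted line and a separate scale in each panel. In all genes but Jmjd1c, a bar lies at the dotted line in every list, and Jmjd1c has no bar there in Tnm2 with UNC0638.

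The KDM4 genes were placed below the other demethylase genes. In every list the 3 lowest percentiles belonged to *Kdm4a*, *Kdm4b* and *Kdm4c*, and the other 7 genes lay between 85.9 and 100. The median percentile of the 10 genes was 95.7, 91.8, 93.7 and 88.3, while the median of all protein-coding genes with a promoter peak was 77.2, 74.1, 77.3 and 69.1. *Kdm4a* and *Kdm4b* were under the all-gene median in every list, and *Kdm4c* was above it only in CK1750 with DMSO. The median summed length of promoter peaks was 1876.5, 1932.5, 1847.5 and 1707 bp for the 10 genes and 1437, 1560, 1434 and 1331 bp for all marked genes.

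**Figure D2:**
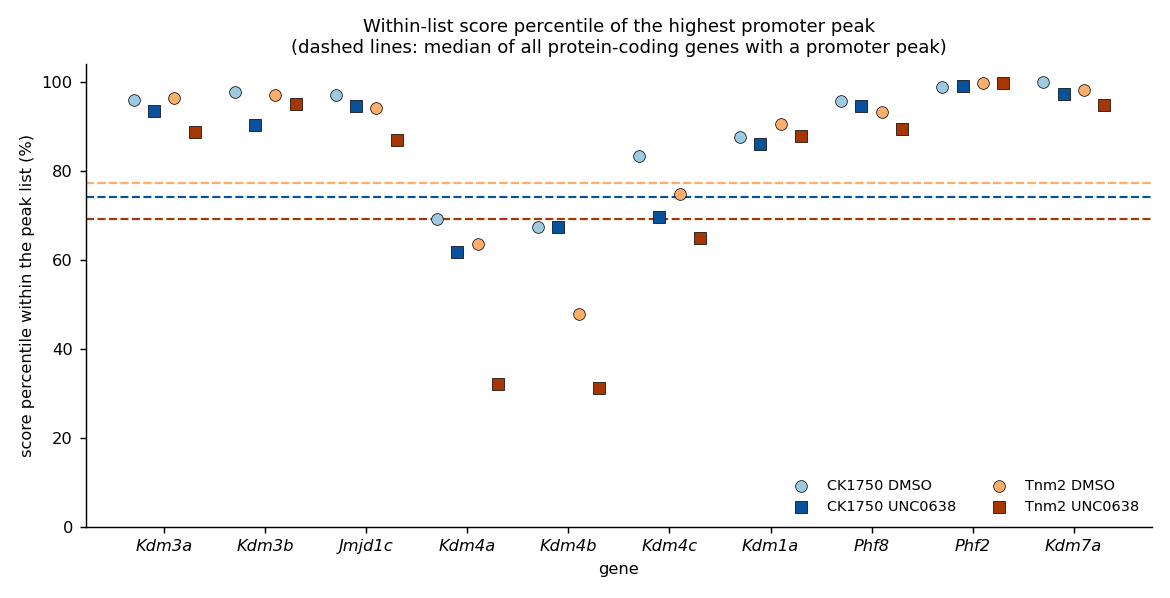
Within-list score percentile of the highest promoter peak (vertical axis, percent) of each gene in the 4 lists, with the median of all marked protein-coding genes as dashed lines in the colour of the list; the lines of the 2 DMSO lists coincide near 77. Kdm4a, Kdm4b and Kdm4c form the lowest 3 points of every list, and Phf2 stays above 98 throughout.

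*Kdm3a*, the H3K9me1/2 demethylase that is also known as a hypoxia-responsive gene (chr6:71588972-71632990, minus strand, mm10), carried 1 strong promoter peak across its first exon. The peak measured 1940, 2012, 2084 and 2031 bp and ran from about 1.1 to 1.2 kb upstream to 0.9 kb downstream of the main start site. Its percentile was 95.9, 93.4, 96.4 and 88.8. Position and length were thus similar in all lists. The GENCODE start sites of *Kdm3a* form 7 groups, and only the 5′ group was marked in all lists. A small second peak of 374 bp with a score of 52.4, close to the cutoff of 50, was found in Tnm2 with DMSO alone. It lay on an internal start site, 23.5 kb downstream of the main one. The upstream bases of these start sites are shown because they differ in CpG content as well as in marking. The sequences come from the RefSeq promoter windows (GRCm38.p6, 5′ to 3′ on the minus strand), trimmed to bases outside annotated exons, with capitals for the GC box (GGGCGG), the CCAAT box or the ETS core (CCGGAAG) on either strand. The stretches hold 14 CpG (chr6:71632991-71633167), 24 CpG (chr6:71632687-71632837) and 0 CpG (internal start, chr6:71609140-71609339).
Kdm3a, upstream of the 5′ group: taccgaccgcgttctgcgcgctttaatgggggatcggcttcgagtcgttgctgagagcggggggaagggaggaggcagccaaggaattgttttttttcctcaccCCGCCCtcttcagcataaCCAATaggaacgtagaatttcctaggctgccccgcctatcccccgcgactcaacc
Kdm3a, at the main start site: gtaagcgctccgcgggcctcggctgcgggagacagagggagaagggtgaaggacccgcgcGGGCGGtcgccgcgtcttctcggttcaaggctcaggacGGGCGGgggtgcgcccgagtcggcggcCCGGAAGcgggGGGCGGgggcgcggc
Kdm3a, internal start site: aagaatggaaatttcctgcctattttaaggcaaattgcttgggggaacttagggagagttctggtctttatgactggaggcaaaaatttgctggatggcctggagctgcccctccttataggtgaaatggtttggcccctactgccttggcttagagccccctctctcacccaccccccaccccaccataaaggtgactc

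*Kdm3b*, a second H3K9me1/2 demethylase, lies on chromosome 18 and likewise had 1 promoter peak in each list. It was 1202, 1406, 1649 and 1450 bp long at percentiles of 97.6, 90.2, 96.9 and 94.9. Most of the peak lay downstream of the start site, with 138, 296, 324 and 305 bp upstream and 1063 to 1324 bp downstream. All 3 of its clustered 5′ start sites were inside the peak in every list.

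*Jmjd1c*, a KDM3 relative whose own demethylase activity is debated (chr10:67096125-67256326, plus strand), was the only gene with several separate acetylated promoters in every list. The strongest lay at the 5′ end of the gene, 31.1 kb upstream of the start site of the main transcript, with percentiles of 97.0, 94.4, 94.1 and 86.8. A second lay at the main start site and had a peak of 1118, 1131 and 1187 bp in the first 3 lists, with percentiles of 68.2, 42.9 and 58.1, and no peak in Tnm2 with UNC0638. The third lay inside the gene, 58.5 kb downstream of the main start site, at percentiles of 73.9, 77.8, 61.9 and 60.3. The 5′ and the internal promoter were therefore marked throughout, and the main start site was the one without a peak in a list. The RefSeq promoter window 170 bp from the main start site is rich in CpG (47 in 300 bp) and the window at the internal start site is less so (13 in 300 bp). Over the whole gene, promoter peaks summed to 5045, 4738, 4782 and 2094 bp. The peaks at the internal promoter measured 779 and 1225 bp in Tnm2 with DMSO, and with UNC0638 there was a single one of 780 bp.

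*Kdm4a*, an H3K9me3 and H3K36me3 demethylase (chr4:118136957-118180043, minus strand), had a promoter split into a pair of peaks in every list. Upstream peak first, they measured 1334 and 492 bp, then 802 and 1051 bp in CK1750, and 898 and 1138 bp, then 520 and 435 bp in Tnm2. The percentile of the higher one was 69.0, 61.7, 63.5 and 32.1. The peaks of Tnm2 with UNC0638 were the shortest and lowest placed, with scores of 81.8 and 58.2 not far above the cutoff. In that list the upstream peak scored higher and covered no start site. In both CK1750 with UNC0638 and Tnm2 with DMSO, the downstream peak scored higher and covered all 4 start sites of the 5′ group. The bases upstream of the RefSeq start site (chr4:118180091-118180290, minus strand, 11 CpG) lie around the gap between the peaks in 3 of the 4 lists (CK1750 with DMSO has its gap downstream of the start site) and hold an AP-1 site (TGANTCA), in capitals.
Kdm4a, upstream: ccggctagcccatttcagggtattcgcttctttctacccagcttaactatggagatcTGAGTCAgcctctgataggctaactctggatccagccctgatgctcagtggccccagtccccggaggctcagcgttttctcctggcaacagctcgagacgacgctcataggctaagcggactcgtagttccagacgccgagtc

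*Kdm4b*, with the same substrates (chr17:56326062-56402870, plus strand), had a single promoter peak of 712, 838, 733 and 713 bp, the smallest summed promoter length of the 10 genes in every list. Its percentile was 67.3 in both CK1750 lists and 47.8 and 31.3 in the Tnm2 lists. The promoter was therefore placed lower in Tnm2 than in CK1750 under either treatment.

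*Kdm4c*, also an H3K9me3 demethylase (chr4:74242497-74405860, plus strand), had 1 promoter peak of 1866, 1753, 1410 and 1555 bp at percentiles of 83.3, 69.5, 74.8 and 64.8. The antisense gene *A230083N12Rik* starts 222 bp from its main start site, so the peak cannot be given to either gene alone. The peak was at the main start site. The annotated start site 9.4 kb further upstream had no peak within 2.5 kb in any list. The bases upstream of the unmarked start site (chr4:74242297-74242496, 0 CpG) and of the marked one (chr4:74251679-74251878, 17 CpG) are shown side by side, plus strand, with the E-box CACGTG, which contains the hypoxia response core ACGTG, in capitals.
Kdm4c, unmarked start site: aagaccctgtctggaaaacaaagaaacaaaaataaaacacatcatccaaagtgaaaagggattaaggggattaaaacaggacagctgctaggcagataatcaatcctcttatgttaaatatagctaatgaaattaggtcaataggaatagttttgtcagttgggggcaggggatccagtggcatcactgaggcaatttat
Kdm4c, marked start site: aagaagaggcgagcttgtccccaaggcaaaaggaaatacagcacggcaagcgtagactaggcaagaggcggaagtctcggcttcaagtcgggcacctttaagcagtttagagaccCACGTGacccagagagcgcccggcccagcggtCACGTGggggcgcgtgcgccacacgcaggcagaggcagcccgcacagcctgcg

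*Kdm1a* (chr4:136550540-136602723, minus strand) had a compact promoter peak of 1179, 1045, 1181 and 1260 bp. Its percentile was 87.5, 85.9, 90.6 and 87.8. Between 177 and 261 bp of the peak lay upstream of the start site and between 867 and 998 bp downstream. Like *Kdm4b*, it had a shorter acetylated promoter than the median marked gene in every list. Its upstream bases (chr4:136602788-136602973, minus strand, 14 CpG) hold a CCAAT box (capitals) and no GC box.
Kdm1a, upstream: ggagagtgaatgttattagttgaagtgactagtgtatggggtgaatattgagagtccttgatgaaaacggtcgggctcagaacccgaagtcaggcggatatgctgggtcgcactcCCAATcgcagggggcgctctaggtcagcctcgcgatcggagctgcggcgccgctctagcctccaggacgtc

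*Phf8*, an X-linked H3K9me1/2 and H4K20me1 demethylase (chrX:151520672-151633859, plus strand), had a promoter peak of 1887, 1883, 1659 and 1859 bp at percentiles of 95.5, 94.6, 93.3 and 89.2. A second peak of 529 bp, with a score of 64.6, lay just downstream in CK1750 with UNC0638 alone. The main peak had nearly the same edges in both CK1750 lists, to within 11 bp. Its upstream bases (chrX:151520441-151520640, plus strand, 16 CpG) hold a GC box and a CCAAT box, in capitals and here on the opposite strand.
Phf8, upstream: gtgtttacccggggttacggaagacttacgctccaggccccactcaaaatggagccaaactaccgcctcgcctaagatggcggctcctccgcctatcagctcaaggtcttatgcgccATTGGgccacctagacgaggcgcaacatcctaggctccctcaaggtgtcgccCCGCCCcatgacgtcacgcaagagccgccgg

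*Phf2*, an H3K9me2 demethylase (chr13:48801750-48871119, minus strand), had the longest single promoter peak of the 10 genes in every list, 2791, 2858, 2936 and 2794 bp. Its score was 3100 in the first 3 lists and 1846 in Tnm2 with UNC0638, where it ranked 79 of 18794 peaks. The percentile was 98.8, 99.0, 99.6 and 99.6. In the first 3 lists this percentile is set by the number of peaks tied at 3100, so it cannot show differences between them. It has a single annotated start site, 7 bp from that of the antisense gene *Phf2os1*, so the peak spans both.

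*Kdm7a*, an H3K9me2 and H3K27me2 demethylase (chr6:39136623-39206789, minus strand), followed with a peak of 2542, 2652, 2313 and 2306 bp. Its percentile was 100, 97.3, 98.0 and 94.7. The first of these rests on a score of 3233, the largest value in that list, and becomes 98.9 when scores of 3100 or more are treated as ties, level with *Phf2*. The upstream edge of the peak lay between 556 and 597 bp from the start site in all lists, and the downstream edge between 1719 and 2061 bp. The long noncoding RNA gene *Gm49041* starts 279 bp away. The upstream bases (chr6:39206790-39206989, minus strand) hold 46 CpG in 200 bp, the most of the stretches shown, with the hypoxia response core, an ETS core and GC boxes in capitals.
Kdm7a, upstream: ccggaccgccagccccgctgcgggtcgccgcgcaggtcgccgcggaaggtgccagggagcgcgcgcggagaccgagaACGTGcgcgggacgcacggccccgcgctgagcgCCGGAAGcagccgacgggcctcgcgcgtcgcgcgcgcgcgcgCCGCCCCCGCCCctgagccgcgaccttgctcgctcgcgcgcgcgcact

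**Figure D3:**
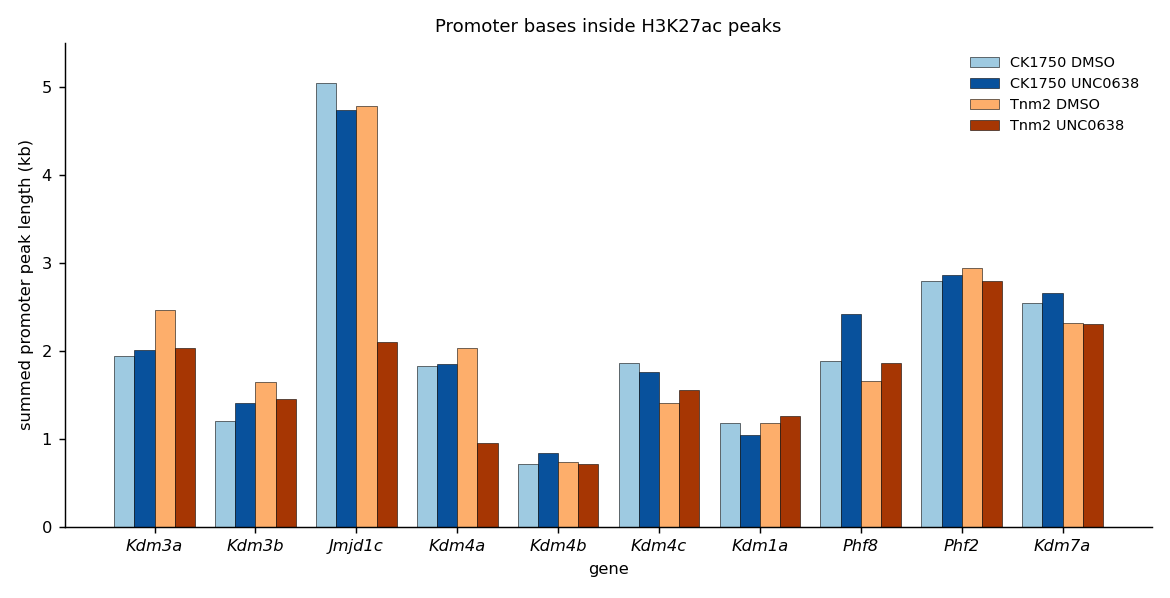
Summed length of the promoter peaks in kb (vertical axis, from 0) for each gene, with 1 bar per list. Jmjd1c covers 4.78 kb in Tnm2 with DMSO and 2.09 kb with UNC0638, Kdm4a 2.04 and 0.95 kb, and Phf2 between 2.79 and 2.94 kb in all lists.

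In CK1750, the promoter lengths of the 10 genes with UNC0638 were within 1.5-fold of those with DMSO. The summed length was larger with UNC0638 in 7 genes and smaller in 3, close to the 65.1% and 34.8% of all genes marked in both lists. The ratio of UNC0638 to DMSO ran from 0.886 (*Kdm1a*) to 1.278 (*Phf8*), with a median of 1.031 against 1.067 for all. The *Phf8* ratio includes its second peak of 529 bp, with a score of 64.6, found with UNC0638 alone. No gene passed 1.5-fold, against 9.51% of all genes upward and 3.49% downward. The percentile was lower with UNC0638 in 9 genes, against 66.1% of all genes, and the median difference over the 10 genes was -2.57 points, against -2.28 for all genes. With scores of 3100 or more tied, the median of the 10 genes was -2.07. That of all genes was not computed with ties, so which of the medians is lower is not settled. *Kdm4c* was the one gene past 10 points, at -13.8. Of all genes, 19.4% were lower by at least that much and 6.07% higher. *Kdm4b*, at -0.01, is counted among the 9. The difference of *Kdm4c* was -15.6 when the same number of top peaks, 18794, was taken from every list. The length ratio of *Phf8* was then 0.998 in place of 1.278, and that of *Kdm4a* 1.389 in place of 1.015.

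In Tnm2, percentiles were lower with UNC0638 in all 10 genes, as in 89.1% of all genes marked in both lists, and the acetylated promoter length of *Jmjd1c* and *Kdm4a* was smaller by more than 1.5-fold. The length ratio was 0.438 for *Jmjd1c* and 0.469 for *Kdm4a*, and between 0.826 and 1.121 for the other 8 genes. Downward changes of that size were seen in 17.4% of all genes marked in both lists and upward ones in 2.31%. The median ratio was 0.962 for the 10 genes and 0.896 for all. *Jmjd1c* had no peak at the main start site and a shorter internal promoter with UNC0638, and both peaks of *Kdm4a* were shorter. Percentiles differed by a median of -5.62 points for the 10 genes and -9.52 for all genes. *Kdm4a* (-31.5) and *Kdm4b* (-16.6) passed 10 points downward, as did 48.5% of all genes, and no member passed it upward, against 1.66%.

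The percentile differences in Tnm2 depended on the lengths of the lists, which were 30641 and 18794 peaks. With 18794 top peaks from each, 4 of the 10 genes were lower with UNC0638 and 6 higher, where 52.8% of all genes were lower, and the median was 0.10 points, against -0.34 for all genes. *Kdm4b* turned from -16.6 to 16.3 points and *Kdm4c* from -9.94 to 5.96, whereas *Kdm4a* (-8.51), *Kdm3a* (-5.28), *Jmjd1c* (-3.52) and *Kdm7a* (-2.04) remained lower. The *Kdm4b* score with DMSO, 132, was near the lowest score then kept in that list, 103. The length ratios of *Jmjd1c* and *Kdm4a* were the same with equal numbers, and that of *Kdm3a* was 0.975 in place of 0.826. In CK1750 the equal-number median was -2.84 with 8 genes lower, against -0.81 and 54.8% for all genes.

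**Figure D4:**
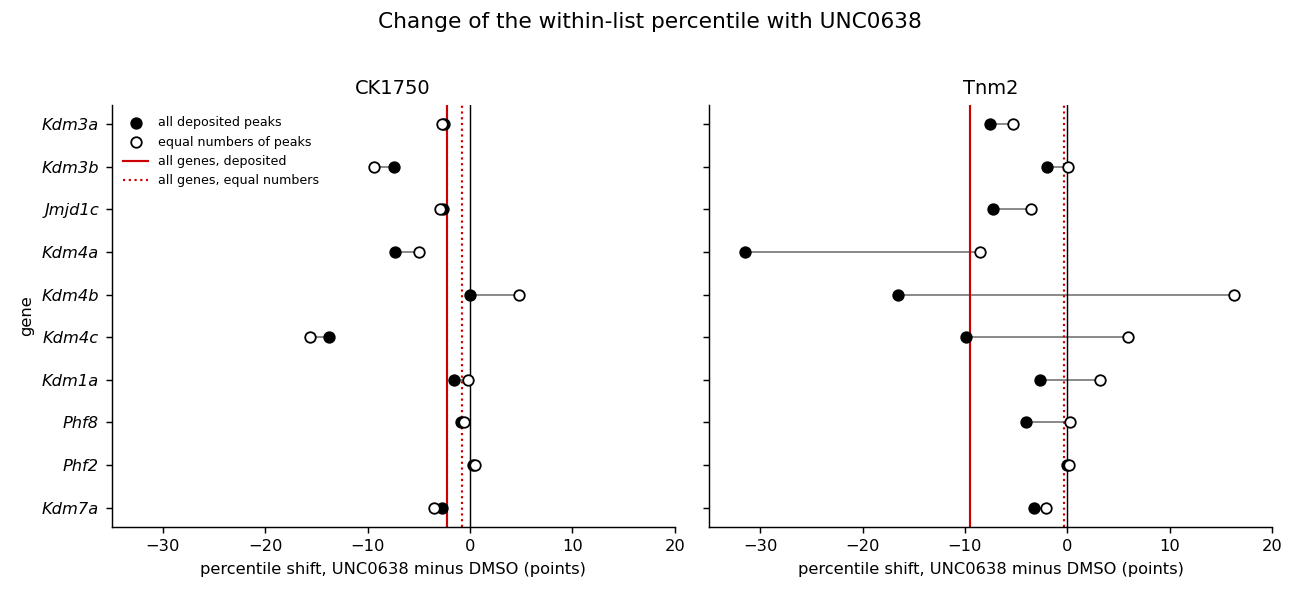
Difference in within-list percentile between UNC0638 and DMSO (horizontal axis, points) for each gene in CK1750 (left) and Tnm2 (right), with all deposited peaks (filled) and with equal numbers of top peaks (open); red lines give the median of all protein-coding genes for the same choices. In Tnm2 all filled points lie below 0 and 6 open points lie above it.

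Between the lines with DMSO, the 10 promoters differed by less than 1.5-fold in length. The ratio of CK1750 to Tnm2 ran from 0.729 (*Kdm3b*) to 1.323 (*Kdm4c*) with a median of 0.985, and 10.8% of all genes passed 1.5-fold upward and 8.79% downward. *Kdm4b* was the gene past 10 percentile points, 19.5 higher in CK1750, and 17.0% of all genes were higher and 12.9% lower by as much. The median difference was 2.13 points for the 10 genes and 0.13 for all, or 3.86 and 1.86 with equal numbers of peaks. With scores of 3100 or more tied, it was 1.57 for the 10 genes. With UNC0638, *Jmjd1c* (2.263-fold) and *Kdm4a* (1.94-fold) covered more bases in CK1750, as did 24.9% of all genes, while 2.81% covered fewer by that factor. *Kdm4a* and *Kdm4b* were placed 29.7 and 36.0 points higher in CK1750, against 41.0% of all genes higher and 5.35% lower by 10 points. With equal numbers of peaks and DMSO, *Kdm4a* (14.4 points) and *Kdm4c* (16.9) were also past 10 points upward, as were 26.4% of all genes. The length ratio of *Kdm4a* was then 0.655, past 1.5-fold, in place of 0.897. Its smaller peak in CK1750 with DMSO (score 71.1) fell under the lowest score kept, 85.5. The share of all genes past 1.5-fold was not computed for equal numbers. The *Kdm4b* difference between the lines kept its direction with equal numbers of peaks but not its size. It was 37.5 points with DMSO in place of 19.5, and 25.9 with UNC0638 in place of 36.0. Its score in Tnm2 with DMSO, 132, was then near the lowest score kept in that list, 103. The *Kdm4a* difference with UNC0638 was 17.9 (28.1% of all genes were then at least 10 points higher in CK1750). These comparisons share lists with those of the treatment.

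Beyond their promoters, the gene bodies and the 50 kb around them held 20, 20, 27 and 15 further peaks, of which 12, 11, 14 and 11 lay at start sites of other genes. *Phf2* had 4, 4, 8 and 3 of these peaks and *Kdm3b* 5, 5, 4 and 3. *Kdm3a* had 1 in every list, at the start site of the antisense gene *1700040L08Rik* and centred inside *Chmp3*. *Kdm4c* and *Phf8* had none in any list. The median protein-coding gene had 2, 1, 2 and 1. In CK1750, 4 of 20 DMSO peaks had no overlapping peak with UNC0638, against 19.3% around all genes, and 5 of 20 UNC0638 peaks had none with DMSO, against 17.7%. In Tnm2, 12 of 27 DMSO peaks had no partner with UNC0638, against 41.1%, and 0 of 15 were gained, against 7.99%. The losses were close to those around all genes in both lines. Of the 12 peaks lost in Tnm2, 5 scored at least 100, and their scores ran from 55.5 to 219.

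**Figure D5:**
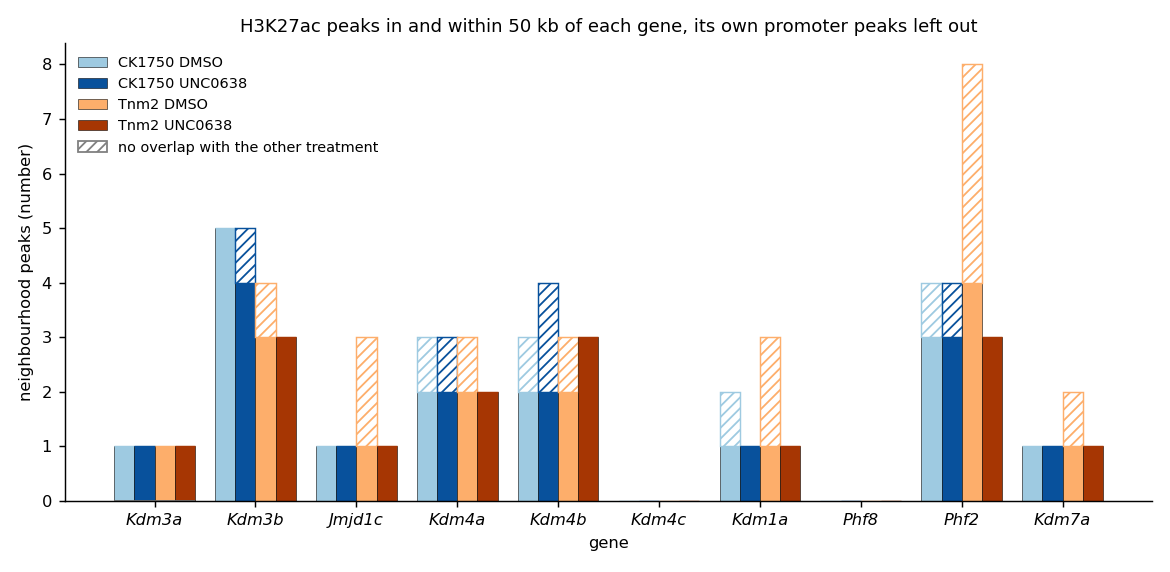
Number of H3K27ac peaks in each gene and within 50 kb of it, without its own promoter peaks (vertical axis), with 1 bar per list; hatched parts are peaks that overlap no peak of the other treatment in the same line. Phf2 has 8 in Tnm2 with DMSO, 4 of them hatched, and Kdm4c and Phf8 have none.

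The peaks lost in Tnm2 with the highest scores lay near *Jmjd1c*, *Kdm7a* and *Kdm4a*. The first scored 219 (chr10:67055541-67056895), in an intron of *Reep3* and 39.2 kb from *Jmjd1c*, and had no counterpart in either CK1750 list. The second scored 154 (chr6:39243047-39243967), between genes and 36.3 kb upstream of *Kdm7a*, and was also found in Tnm2 with DMSO alone. The third scored 150 (chr4:118134106-118134835), 47 bp from a start site of *St3gal3* and 2.1 kb beyond the 3′ end of *Kdm4a*, and was present in both CK1750 lists. The central 300 bp of the first pair are shown as lost distal regions in mm10, plus strand, with AP-1 sites (TGANTCA) in capitals. The *Kdm7a* centre (chr6:39243357-39243656) has 1 CpG and 2 AP-1 sites, and the *Jmjd1c* centre (chr10:67056068-67056367) has 4 CpG and none. Of all peak centres in Tnm2 with DMSO, 11.0% hold an AP-1 site.
Kdm7a, lost distal centre: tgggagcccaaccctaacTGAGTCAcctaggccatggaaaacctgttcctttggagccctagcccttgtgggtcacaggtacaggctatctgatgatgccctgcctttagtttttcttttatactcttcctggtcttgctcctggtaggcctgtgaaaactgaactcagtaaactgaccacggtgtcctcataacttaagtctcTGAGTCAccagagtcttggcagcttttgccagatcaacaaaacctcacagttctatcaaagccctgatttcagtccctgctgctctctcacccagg
Jmjd1c, lost distal centre: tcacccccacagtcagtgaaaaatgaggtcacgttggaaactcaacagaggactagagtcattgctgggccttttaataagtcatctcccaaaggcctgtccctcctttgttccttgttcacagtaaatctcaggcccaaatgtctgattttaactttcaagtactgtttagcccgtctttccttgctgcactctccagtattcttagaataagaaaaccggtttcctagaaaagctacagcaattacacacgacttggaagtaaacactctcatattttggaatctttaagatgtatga

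In CK1750 the gained peak with the highest score, 157, lay in an intron of *Phf2*, 12.5 kb downstream of its start site (chr13:48857947-48859230), and this region was also acetylated in both Tnm2 lists. Gained peaks near *Kdm3b* (score 79.7) and *Kdm4a* (63.1) were found in CK1750 with UNC0638 alone. The lost peaks with the highest scores were at 75.0 near *Kdm1a*, in an intron of *Luzp1*, at 59.0 near *Kdm4b*, in an intron of *Plin3*, and at 57.4 in an intron of *Phf2*. All 4 losses in CK1750 scored under 100. The regions near *Kdm1a* and in *Phf2* had a peak in Tnm2 with DMSO and none in Tnm2 with UNC0638.

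Related genes were marked nearly throughout in CK1750 and in part in Tnm2, with no test of the difference. Of 14 other histone demethylase genes, 14, 14, 12 and 12 had a promoter peak and 11 had one in all lists. This set is not free of H3K9 demethylases, since it holds a further KDM4 gene, *Kdm4d*, at percentiles of 70.9, 59.4, 56.8 and 48.8. *Hr*, also in the set, had no promoter peak in Tnm2 with DMSO. *Kdm1b*, the paralog of *Kdm1a*, had a peak in the CK1750 lists alone, with scores of 54.0 and 118. Of 6 genes for H3K9 methyltransferases, the opposing enzymes, 6, 6, 5 and 4 were marked, and 4 in all lists. *Ehmt1* and *Ehmt2*, whose products UNC0638 inhibits, were among these 4, whereas *Suv39h1* was marked in CK1750 alone and *Setdb1* in all lists but Tnm2 with UNC0638. Of 6 genes for proteins found in complexes with Kdm1a, 5, 5, 4 and 4 were marked, and the deacetylase gene *Hdac1* in none. With UNC0638 the median percentile difference in Tnm2 was -7.07 over 11 other demethylases, -11.3 over 4 methyltransferases and -6.48 over 4 Kdm1a partners, against -9.52 for all genes. In CK1750 it was -1.37 over 14, -8.82 over 6 and -2.08 over 5 of these genes, against -2.28 for all. These values use all deposited peaks, and the Tnm2 differences depended on list length. Equal numbers of peaks were not tried for these sets. Among these genes, *Jmjd6*, *Rcor3* and *Kdm5a* were closest to *Kdm3a* over the 4 lists, with largest percentile differences of 2.81, 3.95 and 4.64 points. *Jmjd6* (2.78), *Rcor3* (4.93) and *Kdm5c* (5.16) were closest to *Phf8*.

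The promoter windows of RefSeq, 300 bp each, gave 12 windows for 8 of the 10 genes, *Kdm3b* and *Kdm4b* excepted. The 9 windows that overlapped a peak in all lists held between 13 and 65 CpG, and the window at the unmarked *Kdm4c* start site and that at the internal *Kdm3a* start site held 0. The window at the *Jmjd1c* main start site, without a peak in Tnm2 with UNC0638, held 47, so CpG content did not follow marking in every window. These counts stand against a median of 7 over 32851 windows. With 1 window per gene, that nearest the main start site, and both strands searched, GGGCGG was found in 6 of 8 genes (35.7% of all windows), CCAAT in 3 (37.4%), ACGTG in 3 (19.6%), CCGGAAG in 2 (8.9%), TGANTCA in 2 (7.8%) and CACGTG in 1 (7.2%). The NRF1 core CGCATGCG (1.9%) and the TATA box TATAAA (13.6%) were found in none. *Kdm3a* and *Kdm4a* were the genes with TGANTCA, and *Kdm4c*, *Phf8* and *Kdm7a* those with ACGTG. These matches describe the letters of the windows and were not tested against the peak values.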

How the data were processed

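H3K27ac chromatin immunoprecipitation libraries of CK1750 and Tnm2 cells were grouped by line and treatment as the labels give them. The authors mapped reads to mouse build 38 (mm10) with bowtie2 and called peaks with MACS 1.4.2, keeping peaks with a P value under 1e-05. The versions of bowtie2 and SAMtools are not given in the sources used here. The deposited lists hold each peak's position and a score, -10 log10 of P, so that the lowest score is 50. Each group has 1 merged list. Replicate numbers in the labels are fewer than the biological replicates that the methods state, and 2 of the 3 CK1750 DMSO samples and both CK1750 UNC0638 samples are sequencing runs of the same replicate number. Which libraries entered a list, and whether input served as control, is not given. Read depth is unknown, so no interval or count test was made, and scores were compared within a list only.

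Peaks were assigned to GENCODE M21 genes (window 2.5 kb around any start site, neighbourhood 50 kb, overlap of 1 bp). The main start site was that of the best APPRIS transcript, then the longest. Summed peak length, the percentile of the highest peak (ties placed at their midpoint) and lost or gained peaks were computed for all 21951 protein-coding genes, with 1.5-fold and 10 points as the sizes reported. The named peaks were the highest promoter peak per gene and list and the 3 highest-scoring lost and gained neighbourhood peaks per line, and the named companions of *Kdm3a* and *Phf8* the 3 genes of the related lists with the smallest largest percentile difference. The lists of related genes were chosen with earlier results of these data known, and the 10 genes were chosen by function. Coordinates are 1-based, and 0 peaks passed the end of any of 21 chromosomes. Of 36 sequences aligned to the genome with minimap2 2.31-r1302, 0 had a second copy over 80% of their length at 95% identity. Functions were tested on simulated lists. Python 3.11.15, numpy 2.4.6, pandas 2.3.3 and matplotlib 3.10.9 were used. Alternatives varied the window, score minimum, list length, start sites, peak merging, overlap rule and neighbourhood.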

Additional observations from a re-analysis of the deposited data

Results flagged for a closer look

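The direction of the length change with UNC0638 was opposite in the 2 lines for 8 of the 10 genes, as it was for 57.0% of 8615 protein-coding genes marked in all lists. In 6 genes the promoter peaks were longer in CK1750 and shorter in Tnm2 (47.1% of all genes). The ratios in CK1750 and Tnm2 were 1.037 and 0.826 for *Kdm3a*, 1.170 and 0.879 for *Kdm3b*, and 1.015 and 0.469 for *Kdm4a*. They were 1.177 and 0.973 for *Kdm4b*, 1.024 and 0.952 for *Phf2*, and 1.043 and 0.997 for *Kdm7a*. The Tnm2 ratio of *Kdm3a* counts the internal peak of 374 bp found with DMSO alone, and was 0.975 with equal numbers of peaks. The CK1750 ratio of *Kdm4a* was then 1.389. The direction was the other way around in *Kdm4c* (0.939 and 1.103) and *Kdm1a* (0.886 and 1.067). The percentile of *Phf2* moved by 0.25 points in CK1750 and by -0.05 in Tnm2, and its first 3 scores were at 3100. None of these differences between the lines was tested, since each value comes from 1 list per group.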

How the results depend on the processing

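No paired analysis was possible because each group has 1 merged list, and for the same reason no replicate could be left out. Of 140 values recomputed for 24 results under 14 alternatives, 112 counted as the same, 26 moved and 2 turned. Counts were the same within 1.5 times. Medians were the same if they kept their direction and stayed within the spread of the 10 genes. A median of the same genes can hardly leave that spread, so for medians the tally says little beyond direction. Medians can still differ in size within that spread. The percentile difference between the lines with DMSO went from 2.13 to 3.42 at a score of at least 100, 3.80 among promoter peaks and 3.86 at equal numbers, and that with UNC0638 from 4.64 to 7.38 and 2.16 under the first and last of these. The presence of a promoter peak and the number of promoter peaks stayed within 1.5 times of the reported counts throughout, and all 10 genes kept a promoter peak except in Tnm2 with UNC0638, where 9 did at the main start sites alone and 8 at a score of at least 100. Tying scores of 3100 or more, chosen after the data were seen, turned no median. It moved the median percentile difference from -2.57 to -2.07 in CK1750 and from 2.13 to 1.57 between the lines with DMSO. With equal numbers of top peaks (18794 per list) the median percentile difference in Tnm2 turned from -5.62 to 0.10. With the widest peak in place of the summed length, the median ratio of CK1750 to Tnm2 with DMSO turned from 0.985 to 1.025.

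Neighbourhood counts moved with most alternatives that admit fewer peaks. In the order of lists used above they were 7, 7, 9 and 4 within 10 kb, 12, 13, 17 and 8 at a score of at least 100, and 17 for Tnm2 with DMSO at equal numbers. Without peaks at start sites of other genes, also chosen afterwards, they were 8, 9, 13 and 4. Losses in CK1750 (4) became 1 within 10 kb, 1 at equal numbers, 0 at a score of at least 100, 2 with partners within 1 kb and 2 away from other start sites. Gains in CK1750 (5) became 2, 2 and 1 under the first 3 of these. Losses in Tnm2 (12) became 4, 5 and 5, and gains in Tnm2 (0) became 2 at equal numbers and 4 with a reciprocal overlap of 50%. The unknown depth, the cutoff that ends each list and the lack of replicates limit all of these counts.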
